A study of Mus musculus with 6 samples.

Results

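The T-box genes encode transcription factors that bind DNA through a shared region, the T-box, and are named for it. The family was taken as every gene whose symbol is Tbx followed by a number, which gave 7 of the 10191 genes in the deposited table: Tbx1, Tbx2, Tbx3, Tbx4, Tbx5, Tbx6 and Tbx21. RNA was sequenced from mouse lung tumours of 2 groups with 3 libraries each, SD and Ctrl. SD mice lived in SD cages and Ctrl mice in home cages for 20 hours of each day, between clock hours 14 and 10, over the 7 weeks that followed a virus injection, with lights on at hour 8 and off at hour 20. SD is not spelled out in the labels; sleep deficiency is named in the title of the series. The genotype label differs from sample to sample, and so also between SD and Ctrl, whereas the design text gives 1 genotype; the samples were treated as 1 genotype, and a difference in genotype could not be told apart from the group. Age, the kind of virus and the hour of tissue collection are not given in the sources used here.

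In the developing mouse lung, Tbx2, Tbx3, Tbx4 and Tbx5 are known as factors of the mesenchyme, the connective tissue that surrounds the growing airways. Tbx4 and Tbx5 act there together with the growth factor gene Fgf10 in the branching of the airways, and Tbx2 and Tbx3, which act mainly as repressors, keep the mesenchyme dividing. Tbx1 is known for its role in the pharyngeal arches and the outflow tract of the heart, Tbx6 for the paraxial mesoderm of the embryo, and Tbx21, also called T-bet, for T helper and natural killer lymphocytes.

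Library totals recovered from the deposited values were 6511192 to 6968966 reads in SD and 7021019 to 7417095 reads in Ctrl. Values below are CPM, in which the reads of each gene are divided by the total of the library so that depths compare, and a mean is given with its SD over 3 libraries. The labels call the libraries biological replicates and say no more of their source, so each p reflects only how far these samples differ among themselves, which may be technical. All 42 values of the T-box genes were whole reads within 0.01 read, and no member stood among the 60 rows listed first, where all 50 genes with values that are not whole reads lie. After those 60 rows the table runs largely in alphabetical order. Of the 10131 later rows, 1005 lay outside the longest alphabetical run, and 978 of these (97.3%) had a ratio of mean CPM, SD over Ctrl, of at least 2. Inside the run it was 30 of 9126 rows (0.329%). Tbx1, Tbx2, Tbx3 and Tbx4 lay outside the run and Tbx5, Tbx6 and Tbx21 inside it. How the rows came to be ordered was not tested.

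Tbx2 and Tbx4 are neighbours on the same strand of chromosome 11, and Tbx3 and Tbx5 on the same strand of chromosome 5. In mm10, Tbx2 (ENSMUSG00000000093) spans 85832551 to 85841948 and Tbx4 (ENSMUSG00000000094) spans 85886422 to 85916097, which leaves 44.5 kb between them. Tbx3 (ENSMUSG00000018604) spans 119670669 to 119684724 and Tbx5 (ENSMUSG00000018263) spans 119832668 to 119885219, 148 kb apart. Tbx1 (ENSMUSG00000009097) lies on the minus strand of chromosome 16, 18580979 to 18590671, Tbx6 (ENSMUSG00000030699) on the plus strand of chromosome 7, 126781483 to 126785560, and Tbx21 (ENSMUSG00000001444) on the minus strand of chromosome 11, 97098071 to 97115331. All 7 are annotated as protein coding. The antisense gene Tbx3os1 overlaps 697 bases of Tbx3, and since no strand setting is stated, reads from that stretch cannot be assigned to either gene.

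Promoter sequences from RefSeq (GRCm38.p6), 250 bases before to 50 bases after a start site, matched 4 of the 7 members: Tbx1, Tbx4, Tbx6 and Tbx21. Tbx2, Tbx3 and Tbx5 had no entry. Tbx1 and Tbx4 are shown because both were higher in every SD library than in any Ctrl library, as described below; each is written 5′ to 3′ on its gene's strand, in lower case, with any motif searched for in capitals.
Tbx1 promoter, chr16:18590622-18590921, minus strand: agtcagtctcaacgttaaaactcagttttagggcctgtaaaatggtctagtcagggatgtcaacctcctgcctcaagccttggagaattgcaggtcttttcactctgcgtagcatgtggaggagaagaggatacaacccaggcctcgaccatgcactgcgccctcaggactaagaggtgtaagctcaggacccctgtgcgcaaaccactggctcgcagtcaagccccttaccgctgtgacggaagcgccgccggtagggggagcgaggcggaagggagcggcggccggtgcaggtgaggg
Tbx4 promoter, chr11:85896515-85896814, plus strand: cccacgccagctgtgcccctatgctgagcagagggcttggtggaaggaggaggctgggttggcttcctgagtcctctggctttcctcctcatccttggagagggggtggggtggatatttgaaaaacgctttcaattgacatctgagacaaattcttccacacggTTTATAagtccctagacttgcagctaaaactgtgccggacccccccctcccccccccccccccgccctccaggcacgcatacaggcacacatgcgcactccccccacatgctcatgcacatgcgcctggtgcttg
The Tbx1 window shown covers the annotated start of the gene, whereas the Tbx4 window begins 10.1 kb downstream of the annotated gene start, inside the gene. Another Tbx1 entry, chr16:18588850-18589149, is not shown. It lies inside the gene, with 26 CpG dinucleotides, and held no motif searched for. The count of CpG dinucleotides also differed, with 8 in the Tbx4 window against 16 in the Tbx1 window shown and a median of 7 over all 32851 promoter windows. The share of G and C was alike, 59% in the Tbx4 window and 58.3% in the Tbx1 window shown. The motifs searched, on both strands, were the T-box site core GGTGTGA, the E-box CACGTG that clock factors bind, the nuclear receptor site core AGGTCA and the TATA box TATAAA. The one match in these windows was a TATA box on the opposite strand of the Tbx4 window, read as TTTATA, at position -85 from the start site. Over all promoter windows, 3.98% held the T-box core, 7.15% the E-box, 16.3% the nuclear receptor core and 13.6% the TATA box. A match is a string of letters in this window and says nothing of binding.

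Tbx2 was by far the most abundant member, and all members of the mesenchymal group stood higher in SD tumours. The members were picked with these SD and Ctrl values known, so the values are a description and no test of them is given. Tbx2 had 1029, 1072 and 1004 CPM in SD libraries, against 309.8, 268 and 279 CPM in Ctrl libraries. Every SD library lay above every Ctrl library, and the lowest SD value was 3.24 times the highest Ctrl value. The means were 1035 ± 34.4 CPM in SD and 286 ± 21.7 CPM in Ctrl (SD, n = 3 each), a ratio of 3.62 and a difference of 1.86 on the log2(CPM + 1) scale. By mean CPM, Tbx2 ranked 107 among the 10191 listed genes in SD and 562 in Ctrl.

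Tbx4, which marks lung and hindlimb mesenchyme in the embryo, had 83.5, 86.1 and 99.98 CPM in SD libraries, against 29.4, 32.0 and 37.6 CPM in Ctrl libraries. The groups were again apart, with the lowest SD value 2.22 times the highest Ctrl value. The means were 89.9 ± 8.84 CPM in SD and 33.0 ± 4.20 CPM in Ctrl (SD, n = 3 each), a ratio of 2.72 and a log2 difference of 1.42. Tbx4 varied more among the libraries of a group than Tbx2 did, with a coefficient of variation of 9.84% in SD and 12.7% in Ctrl, against 3.32% in SD and 7.59% in Ctrl for Tbx2.

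Tbx3, the closest relative of Tbx2, had 96.4, 108 and 89.7 CPM in SD libraries, against 36.6, 31.8 and 37.2 CPM in Ctrl libraries. Tbx1 had 56.2, 65.3 and 62.0 CPM in SD libraries, against 19.5, 20.0 and 17.5 CPM in Ctrl libraries. Neither gene's groups overlapped, and the ratios of mean CPM were 2.79 for Tbx3 and 3.22 for Tbx1. Tbx5, the closest relative of Tbx4, had 24.0, 22.4 and 23.5 CPM in SD libraries, against 12.1, 14.0 and 10.7 CPM in Ctrl libraries. Its groups did not overlap either, and its ratio of 1.89 was the smallest among the 5 members whose groups were apart.

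Tbx6 and Tbx21 were near the lower end of the table and overlapped between the groups. Tbx6 had 1.38, 3.59 and 2.09 CPM in SD libraries, against 1.52, 1.35 and 2.14 CPM in Ctrl libraries, which is 9 to 25 reads in SD and 10 to 15 reads in Ctrl. Tbx21 had 1.38, 0.430 and 1.05 CPM in SD libraries, against 0.828, 0.539 and 0.712 CPM in Ctrl libraries, or 3 to 9 reads in SD and 4 to 6 in Ctrl. Both genes rest on few reads at this depth, where 3 reads equal 0.404 to 0.461 CPM, and no difference is read for either. In all, 5 of the 7 members had every SD library above every Ctrl library, beside 30.0% of the 10004 tested genes (60.3% were apart in either direction). Because the members were chosen from this contrast, nothing is read from that count.

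**Figure D1:**
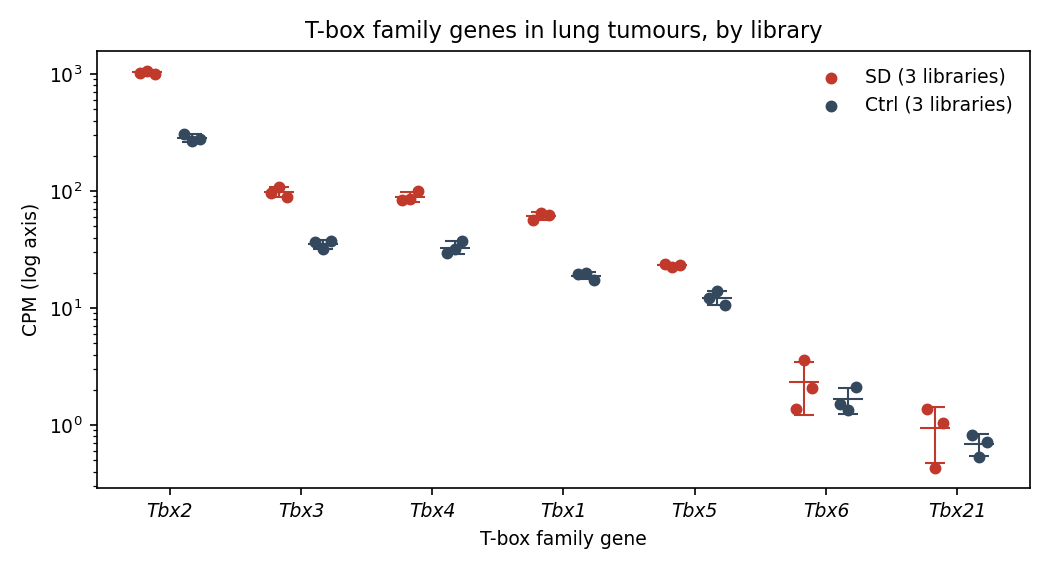
CPM of the 7 T-box genes on a log axis, with 1 point per library, SD left of Ctrl for each gene, and the mean with its SD as bars. Tbx1 to Tbx5 lie higher in all SD libraries, with Tbx2 at 1004 to 1072 CPM in SD, while Tbx6 and Tbx21 overlap.

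Tbx2 also stood first once gene length was taken into account. Per kilobase of annotated exon, Tbx2 stood at 285 ± 9.48 CPM in SD and 78.8 ± 5.98 CPM in Ctrl. Tbx4 followed at 26.4 ± 2.60 CPM per kb in SD and 9.70 ± 1.23 in Ctrl. Tbx1 was at 17.4 ± 1.31 CPM per kb in SD and 5.396 ± 0.366 in Ctrl, and Tbx3 at 14.8 ± 1.42 in SD and 5.31 ± 0.443 in Ctrl. The intervals of mean ± SD of Tbx1 and Tbx3 overlapped in both groups. Both genes were measured in the same libraries, so such overlap cannot decide whether they differ, which was not tested. Tbx5 was at 4.98 ± 0.172 CPM per kb in SD and 2.63 ± 0.358 in Ctrl, Tbx6 at 1.30 ± 0.624 in SD and 0.924 ± 0.230 in Ctrl, and Tbx21 at 0.383 ± 0.194 in SD and 0.279 ± 0.0584 in Ctrl. The order of the 7 means was the same in both groups, though those of Tbx1 and Tbx3 were close in Ctrl. Tbx3 has the longest annotated exons of the 7, 6624 bases; by CPM it overlapped with Tbx4 in both groups (98.1 ± 9.37 CPM for Tbx3 in SD and 35.2 ± 2.93 CPM in Ctrl), while per kilobase it was lower.

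The make-up of the family total shifted less than its size. The 7 genes summed to 1292, 1358 and 1282 CPM in SD libraries, against 410, 368 and 385 CPM in Ctrl libraries. Tbx2 made up 79.0 ± 0.673% of that sum in SD and 73.7 ± 1.69% in Ctrl (SD, n = 3 each), and the groups did not overlap. Ratios within a library do not depend on its depth. Within the chromosome 11 pair, Tbx2 CPM was 12.3, 12.4 and 10.0 times Tbx4 CPM in SD libraries, against 10.5, 8.38 and 7.43 times in Ctrl libraries, and the groups overlapped. Within the chromosome 5 pair, Tbx3 CPM was 4.03, 4.83 and 3.82 times Tbx5 CPM in SD libraries, against 3.01, 2.27 and 3.48 times in Ctrl libraries, with no overlap. The ratio of Tbx2 to Tbx3, both repressors, was 10.6 ± 0.648 in SD and 8.13 ± 0.539 in Ctrl, also without overlap. That of Tbx4 to Tbx5 was 3.86 ± 0.387 in SD and 2.74 ± 0.679 in Ctrl, and there the groups overlapped.

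**Figure D2:**
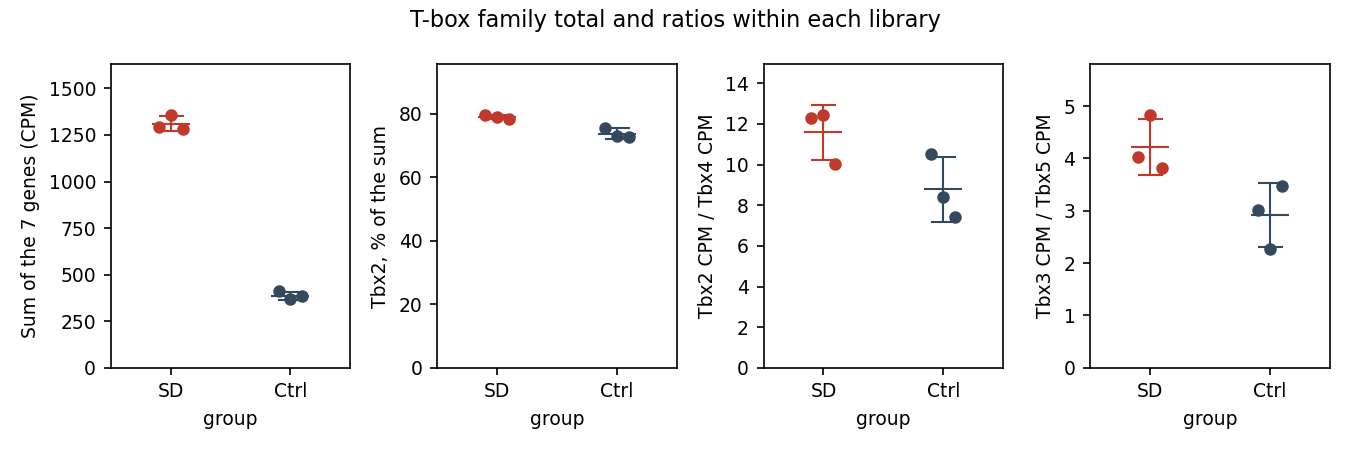
Sum of the 7 T-box genes in CPM, the percent of that sum from Tbx2, and the CPM ratios of Tbx2 to Tbx4 and of Tbx3 to Tbx5, with 1 point per library, SD left of Ctrl, and mean and SD as bars. The sum is 1282 to 1358 CPM in SD and 368 to 410 CPM in Ctrl, while the Tbx2 to Tbx4 ratio overlaps between the groups.

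Of the genes analysed next to the chromosome 11 and chromosome 5 pairs, 1 passed the test. Among the protein-coding genes that the annotation places within 500 kb of Tbx2 or Tbx4, Bcas3, Ints2, Med13 and Ppm1d were in the table. Bcas3 ends 6.49 kb before Tbx2 and had 39.3, 38.3 and 50.8 CPM in SD libraries, against 38.0, 39.9 and 41.2 CPM in Ctrl libraries (log2 difference 0.10 ± 0.11 (SE), limma adjusted p = 0.48). Med13, a subunit of the Mediator complex, was higher by 0.19 on the log2 scale (205 ± 7.03 CPM in SD and 180 ± 10.4 CPM in Ctrl, limma adjusted p = 0.0060), a call that was lost without Ctrl replicate 3 (adjusted p = 0.052). Ppm1d, a phosphatase of the p53 pathway, was at 29.5 ± 5.85 CPM in SD and 34.5 ± 1.45 CPM in Ctrl, and Ints2, an Integrator subunit, at 11.4 ± 1.003 CPM in SD and 12.3 ± 1.48 CPM in Ctrl. Near Tbx3 and Tbx5, the one gene analysed was Rbm19, a protein of ribosome assembly, at 1.19 ± 0.272 CPM in SD and 2.45 ± 0.493 CPM in Ctrl (adjusted p = 0.059). Over all 7 members, 72 neighbours were tested, of which 20 were higher and 20 lower with a median log2 difference of 0.02. Of all 10004 tested genes, 28.1% were higher and 28.5% lower (56.6% in either direction) with a median of -0.01.

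Over the 6 libraries, the genes most like Tbx2 by Pearson's r of log2(CPM + 1) were Sod1, Ybx3, Sf1, Nrxn2 and C1qtnf2, with r of 0.9992 to 0.9997. Sod1, Sf1 and C1qtnf2 stand among the first 60 rows, and Sod1 and Sf1 each hold 2 values that are not whole reads. The genes most like Tbx4 were Acap2, Chst1, Taf4, Edn1 and Gabarapl1, with r of 0.9979 to 0.9996. Such values mostly follow the difference between the groups, since 1311 genes had an r above 0.95 with Tbx2 and 1122 with Tbx4. Within the family, Tbx2 had an r of 0.994 with Tbx1, 0.994 with Tbx3, 0.974 with Tbx4 and 0.962 with Tbx5, and 0.447 with Tbx6 and 0.357 with Tbx21. The 6 libraries are shared by all genes, and no p is given.

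Transcription factors of lung mesenchyme other than T-box genes were higher in SD tumours in 16 of the 22 tested, lower in 0, and 6 did not pass, with a median log2 difference of 0.98. Among all tested genes 28.1% were higher and 28.5% lower, with a median of -0.01. Tcf21, a factor of lung fibroblast precursors, had 152, 154 and 150 CPM in SD libraries, against 42.0, 45.6 and 42.0 CPM in Ctrl libraries, with no overlap (ratio 3.52, log2 difference 1.79 ± 0.08 (SE), limma adjusted p = 1.6e-21). Foxf1, which acts downstream of Hedgehog signals in lung mesenchyme and is also active in lung endothelium, rose to 319 ± 11.9 CPM in SD, against 147 ± 12.8 CPM in Ctrl (ratio 2.17). Hoxa5, a homeobox factor of lung mesenchyme, was at 284 ± 3.29 CPM in SD and 96.9 ± 8.51 CPM in Ctrl (adjusted p = 3.2e-22), and Zeb1, a repressor of epithelial genes, at 214 ± 4.31 CPM in SD and 65.2 ± 3.10 CPM in Ctrl (adjusted p = 1.2e-22). The factors that did not pass were Snai1, Snai2, Prrx1, Meox1, Gli3 and Srf. In these bulk samples, a change in the number of cells of a type and a change in RNA per cell cannot be told apart. Mga, a large protein that carries a T-box beside another DNA-binding region, was outside the name rule and did not pass (56.8 ± 0.815 CPM in SD and 63.5 ± 1.30 CPM in Ctrl, adjusted p = 0.12).

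**Figure D3:**
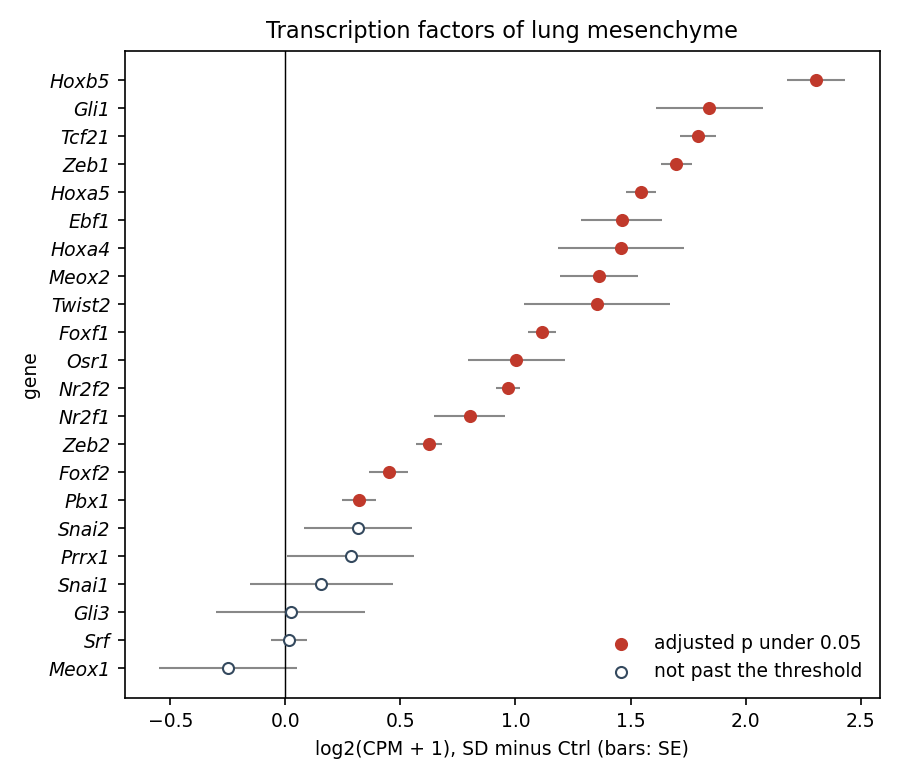
Difference in log2(CPM + 1), SD minus Ctrl, with its SE for 22 transcription factors of lung mesenchyme, filled where the limma adjusted p was under 0.05. The 16 that passed all lie to the right of 0, and Foxf1 and Tcf21 stand at 1.12 and 1.79.

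FGF signalling is a route by which mesenchymal ligands reach epithelial receptors. Of its 12 tested genes 5 were higher and 4 lower, with a median log2 difference of 0.18, beside 28.1% higher and 28.5% lower among all tested genes. Both mesenchymal ligands were higher. Fgf7 rose to 31.6 ± 3.69 CPM in SD, against 15.3 ± 0.693 CPM in Ctrl (limma adjusted p = 1.5e-07). Fgf10, which acts together with Tbx4 and Tbx5 in mouse lung buds, had 3.99, 6.17 and 4.48 CPM in SD libraries, against 3.45, 1.75 and 2.14 CPM in Ctrl libraries (adjusted p = 0.014). That call was lost without SD replicate 2 (adjusted p = 0.084), Ctrl replicate 2 (0.077) or Ctrl replicate 3 (0.0504). Fgf9 was below the filter, at 0.954 ± 0.580 CPM in SD and 0.418 ± 0.150 CPM in Ctrl. Fgfr2, whose epithelial form is the receptor of FGF7 and FGF10, fell to 139 ± 8.68 CPM in SD, against 290 ± 6.37 CPM in Ctrl (adjusted p = 2.7e-18). Etv5, a factor induced by FGF signals and also a type 2 alveolar marker, fell to 49.7 ± 2.72 CPM in SD, against 244 ± 3.69 CPM in Ctrl. The receptors Fgfr4 and Fgfr3 rose, Fgfr4 to 30.4 ± 3.25 CPM in SD, against 4.64 ± 1.15 CPM in Ctrl, while Fgfr3 (84.9 ± 1.39 CPM in SD and 37.0 ± 2.45 CPM in Ctrl) is 1 of the first 60 rows.

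WNT genes were higher in 6 and lower in 2 of 13 tested genes (median log2 difference 0.42), beside shares of 28.1% and 28.5% over all tested genes. The 2 lower genes, named here after their values were seen, were Ctnnb1, which encodes beta-catenin (2516 ± 52.0 CPM in SD and 2835 ± 25.1 CPM in Ctrl), and its DNA-binding partner Tcf7l2 (68.8 ± 1.04 CPM in SD and 108 ± 9.95 CPM in Ctrl). Wnt2, a ligand of lung mesenchyme that lies downstream of Tbx5 when the mouse lung forms, had 13.1, 18.4 and 11.4 CPM in SD libraries, against 3.73, 1.75 and 3.13 CPM in Ctrl libraries, with no overlap (ratio 4.97, limma adjusted p = 6.9e-09). Wnt11 rose to 52.9 ± 4.46 CPM in SD, against 12.2 ± 0.971 CPM in Ctrl, and Wnt4 to 51.7 ± 4.61 CPM in SD, against 15.7 ± 1.55 CPM in Ctrl. Wnt2b also passed (3.34 ± 1.44 CPM in SD and 1.20 ± 0.192 CPM in Ctrl, adjusted p = 0.0083), but not without SD replicate 1 (adjusted p = 0.088). Wnt5a (7.31 ± 1.01 CPM in SD and 6.93 ± 1.82 CPM in Ctrl) and the epithelial ligand Wnt7b (5.67 ± 1.85 CPM in SD and 6.80 ± 1.49 CPM in Ctrl) did not pass. Axin2, a target of canonical WNT signals, rose to 31.2 ± 2.06 CPM in SD, against 12.3 ± 2.21 CPM in Ctrl (adjusted p = 3.6e-09).

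In the Hedgehog list 3 of 8 tested genes were higher and 2 lower (median log2 difference 0.22), close to the 28.1% and 28.5% of all tested genes, so the counts themselves are no result about the pathway. Gli1, a target and mediator of the pathway in mesenchyme, rose to 14.2 ± 3.02 CPM in SD, against 3.25 ± 0.941 CPM in Ctrl (limma adjusted p = 1.4e-08). The receptor Ptch1 rose to 124 ± 19.3 CPM in SD, against 77.7 ± 5.02 CPM in Ctrl, and the ligand-binding protein Hhip to 44.5 ± 5.92 CPM in SD, against 21.9 ± 4.30 CPM in Ctrl; both are also targets of the pathway. Sufu, a repressor of the GLI factors, fell to 8.99 ± 2.41 CPM in SD, against 15.4 ± 0.764 CPM in Ctrl. The epithelial ligand Shh was lower at 60.9 ± 6.78 CPM in SD and 72.8 ± 3.21 CPM in Ctrl (adjusted p = 0.014), and its call was lost without SD replicate 3 (adjusted p = 0.12) or Ctrl replicate 1 (0.066).

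BMP genes, a pathway that acts upstream of Tbx2 in the mouse heart, were higher in 8 and lower in 4 of 18 tested genes (median log2 difference 0.35), where all tested genes had 28.1% higher and 28.5% lower. Bmpr2, the type II receptor, had 1232, 1199 and 1254 CPM in SD libraries, against 295, 289 and 280 CPM in Ctrl libraries (ratio 4.26, limma adjusted p = 1.9e-31). Smad6, an inhibitory SMAD, rose to 1020 ± 37.1 CPM in SD, against 264 ± 9.49 CPM in Ctrl. Acvrl1, an endothelial receptor of the pathway, rose to 455 ± 15.2 CPM in SD, against 150 ± 1.57 CPM in Ctrl, and the target Id3 to 404 ± 19.7 CPM in SD, against 123 ± 11.5 CPM in Ctrl. No BMP ligand tested was higher. Bmp4 did not pass (284 ± 7.07 CPM in SD and 308 ± 11.8 CPM in Ctrl, adjusted p = 0.052), nor did Bmp7, while Bmp5 fell to 34.6 ± 3.06 CPM in SD, against 49.4 ± 1.67 CPM in Ctrl. Bmp2 was lower at 9.42 ± 1.47 CPM in SD and 14.8 ± 5.10 CPM in Ctrl (adjusted p = 0.019), a call lost without SD replicate 3 (adjusted p = 0.081), Ctrl replicate 2 (0.23) or Ctrl replicate 3 (0.052).

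Genes reported in mouse or human cells as repressed by TBX2 or TBX3 had no common direction, with 2 higher, 2 lower and 2 not past the threshold among the 6 tested (median log2 difference -0.38). These counts are near the shares over all tested genes, 28.1% higher and 28.5% lower, so they are no result about such targets. Gja1, the gap junction protein connexin 43, fell to 46.6 ± 3.70 CPM in SD, against 100 ± 2.26 CPM in Ctrl (limma adjusted p = 6.8e-14). Cdh1, which encodes E-cadherin, fell to 6.09 ± 1.79 CPM in SD, against 14.3 ± 2.92 CPM in Ctrl. The cell cycle inhibitor Cdkn1b rose to 265 ± 10.4 CPM in SD, against 224 ± 4.90 CPM in Ctrl. Gja5 (0.949 ± 0.532 CPM in SD and 1.93 ± 0.755 CPM in Ctrl) and Ndrg1 (7.81 ± 0.923 CPM in SD and 8.92 ± 0.799 CPM in Ctrl) did not pass. Cdkn1a, Cdkn2a, Nppa, Frzb and Shisa3 were not analysed here. Among proteins reported to bind T-box factors, 2 of 8 tested genes were higher and 3 lower (median log2 difference 0.05), near the 28.1% and 28.5% of all tested genes. Wwtr1, the coactivator TAZ, fell to 45.7 ± 1.28 CPM in SD, against 61.0 ± 2.77 CPM in Ctrl, and the histone deacetylase Hdac1 to 132 ± 5.75 CPM in SD, against 158 ± 6.20 CPM in Ctrl. Egr1, an immediate early factor reported to act with TBX2, is 1 of the first 60 rows (93.9 ± 8.45 CPM in SD and 41.6 ± 3.35 CPM in Ctrl), and the call of the other, Chd4, was lost without SD replicate 1 (adjusted p = 0.12) or Ctrl replicate 1 (0.087). Cbx3, a heterochromatin protein, was lower at 63.7 ± 4.86 CPM in SD and 75.5 ± 6.28 CPM in Ctrl (adjusted p = 0.017), also lost in 2 runs that left out 1 library, and is named here after its values were seen.

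Beside the T-box genes, markers of other lung cells also differed, and their part in the T-box values was not tested. Smooth muscle and pericyte markers were higher in 11 and lower in 1 of 13 tested, beside 28.1% higher and 28.5% lower among all tested genes. Their 14 listed genes summed to 1252 to 1267 CPM in SD and 504 to 519 CPM in Ctrl. Among them, Tagln rose to 375 ± 9.85 CPM in SD, against 136 ± 7.22 CPM in Ctrl, and Acta2 to 266 ± 10.4 CPM in SD, against 90.6 ± 8.35 CPM in Ctrl. The 1 lower smooth muscle and pericyte marker, named after its values were seen, was Rgs5 (ratio 0.207). Fibroblast markers were mixed, with 6 of 14 higher and 4 lower (median log2 difference 0.36), beside the same shares of all tested genes. Their sum, in which the abundant collagens weigh most, was alike in both groups, 2730 to 2773 CPM in SD and 2729 to 2787 CPM in Ctrl. The collagens Col3a1 (510 ± 10.8 CPM in SD and 755 ± 43.3 CPM in Ctrl) and Col1a1 (443 ± 24.96 CPM in SD and 660 ± 46.3 CPM in Ctrl) fell (limma adjusted p = 1.1e-13 and 1.1e-12). The 6 higher fibroblast markers, named here after their values were seen, were Pdgfra, Scube2, Mfap4, Dpt, Limch1 and Fbln1, with ratios of mean CPM of 3.54, 3.84, 2.53, 1.74, 1.41 and 1.37. Lower beside Col3a1 and Col1a1, and named on the same terms, were Npnt and Col1a2. Npnt stood at 112 ± 4.21 CPM in SD and 176 ± 5.69 CPM in Ctrl. Col1a2 stood at 260 ± 1.19 CPM in SD and 324 ± 1.76 CPM in Ctrl.

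Endothelial markers were higher in 7 and lower in 1 of 8 tested. Beside this list and each one below, 28.1% of all tested genes were higher and 28.5% lower. The endothelial sums were 2996 to 3078 CPM in SD and 1025 to 1080 CPM in Ctrl. The most abundant was Ramp2, at 1133 ± 23.5 CPM in SD and 232 ± 6.35 CPM in Ctrl. Tie1 followed, at 958 ± 5.76 CPM in SD and 366 ± 11.1 CPM in Ctrl. The 1 lower endothelial marker, named after its values were seen, was Aplnr (ratio 0.477). Ciliated airway markers were higher in 6 of 6, with sums of 1308 to 1332 CPM in SD and 340 to 361 CPM in Ctrl, among them Tppp3 (1006 ± 10.9 CPM in SD and 263 ± 5.90 CPM in Ctrl) and Foxj1, a factor of ciliated cells (218 ± 13.9 CPM in SD and 61.0 ± 3.24 CPM in Ctrl). Both club cell markers tested were higher, and their sum of 1162 to 1217 CPM in SD and 372 to 404 CPM in Ctrl was mostly Aldh1a1 (1192 ± 31.3 CPM in SD and 390.0 ± 16.6 CPM in Ctrl). Bpifa1, the other (4.15 ± 1.48 CPM in SD and 1.76 ± 0.485 CPM in Ctrl), did not pass without SD replicate 1 (adjusted p = 0.083) or Ctrl replicate 2 (0.058). Type 2 alveolar markers were lower in 7 of 7, with sums of 1359 to 1441 CPM in SD and 4937 to 5449 CPM in Ctrl, and of the surfactant genes Sftpc fell to 1180 ± 37.6 CPM in SD, against 4033 ± 266 CPM in Ctrl, and Sftpb to 88.5 ± 1.77 CPM in SD, against 536 ± 35.5 CPM in Ctrl. Alveolar macrophage markers were lower in 3 of 4, with sums of 70.6 to 81.7 CPM in SD and 349 to 360 CPM in Ctrl, led by Atp6v0d2 (34.9 ± 4.17 CPM in SD and 210 ± 7.57 CPM in Ctrl) and Ctsk (33.1 ± 0.565 CPM in SD and 114 ± 9.09 CPM in Ctrl). Type 1 alveolar markers were mixed, higher in 5 and lower in 3 of 8, beside 28.1% and 28.5% of all tested genes. Their sums were 2077 to 2137 CPM in SD and 1679 to 1746 CPM in Ctrl. The 2 most abundant were Cav1, 1 of the first 60 rows (769 ± 15.8 CPM in SD and 343 ± 17.1 CPM in Ctrl), and Hopx (673 ± 23.3 CPM in SD and 369 ± 8.46 CPM in Ctrl). The 3 lower ones, named after their values were seen, were the water channel Aqp5 (147 ± 12.3 CPM in SD and 364 ± 8.50 CPM in Ctrl), Clic5 (ratio 0.408) and Ager (ratio 0.793).

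Cardiac muscle, where Tbx5 is also active, was represented by 7 markers, of which 5 were higher and 1 lower. Of all tested genes, 28.1% were higher and 28.5% lower. The cardiac markers summed to 332 to 344 CPM in SD and 251 to 262 CPM in Ctrl. Myh6, a heart myosin, fell to 55.2 ± 3.67 CPM in SD, against 139 ± 9.48 CPM in Ctrl, while the cardiac actin Actc1 rose to 116 ± 1.20 CPM in SD, against 40.7 ± 1.67 CPM in Ctrl. Of the mesothelial markers, 1 was analysed, Upk1b, at 9.12 ± 0.652 CPM in SD and 2.63 ± 0.0726 CPM in Ctrl. Beside Tbx21, 1 of 12 T and NK cell markers was analysed. Cd3e had 2.92, 3.59 and 1.05 CPM in SD libraries, against 0.552, 1.08 and 0.570 CPM in Ctrl libraries, with overlapping groups (limma adjusted p = 0.013), and the call was lost without SD replicate 1 (adjusted p = 0.064) or SD replicate 2 (0.10) and was not made with edgeR on recovered reads or with a filter of 10 reads. The table holds no value under 1 read, so no marker in it could be at 0, and the listed markers outside it, among them Pecam1, Scgb1a1 and Marco, were not analysed here.

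**Figure D4:**
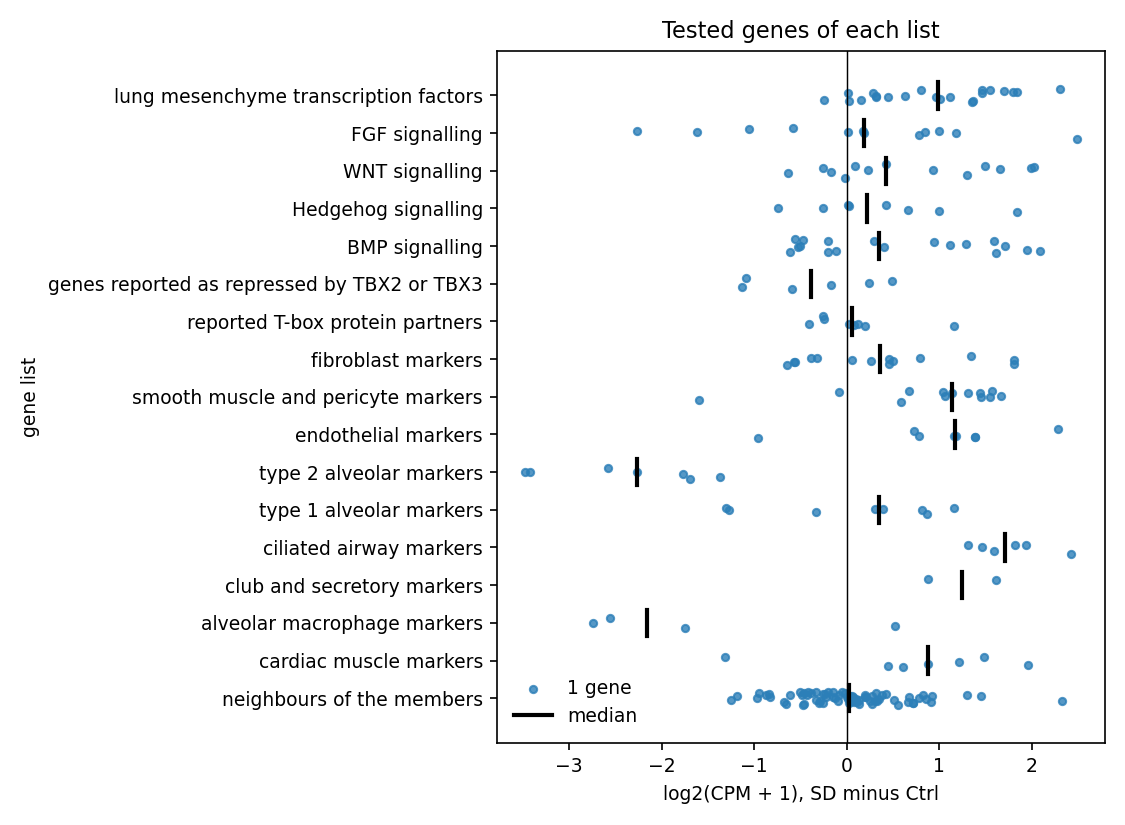
Difference in log2(CPM + 1), SD minus Ctrl, for each tested gene (points) and the median (bars) of the pathway, neighbour and marker lists. Mesenchymal transcription factors have a median of 0.98 and smooth muscle and pericyte markers one of 1.14. Type 2 alveolar markers have one of -2.27, and the neighbours of the T-box genes one of 0.02.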

How the data were processed

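Lung tumour RNA libraries, 3 SD and 3 Ctrl, were made from 1.5 ug of total RNA with a NEBNext Ultra kit. That is per the labels' protocols; they leave the strand setting unstated. The submitters' processing notes name mm10, featureCounts 1.5.0-p3 and HISAT2 2.0.5. CPM values were deposited by the authors in 1 table with a column per library, per the file headers; how its 10191 genes were chosen is not stated. Names came from GENCODE M21 on the same build by gene ID, with 10190 matched.

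Each column was made of multiples of 1 step, which gave library totals and whole reads for 61022 of 61146 values (99.8%, tolerance 0.01 read). The 10004 genes that reached 1 CPM in 3 or more libraries were tested with limma 3.58.1, trend option, on log2(CPM + 1) in R 4.3.3, modelling group alone, with p-values adjusted by Benjamini-Hochberg and a threshold of 0.05. Of the T-box genes, 6 of 7 passed this filter. Such log2 differences understate changes of low genes; ratios are of mean CPM. The test was also run on simulated counts with far fewer changed genes than were called here. That run does not give the error rate in these data. Alternatives were edgeR 4.0.16 and DESeq2 1.42.0 on recovered reads and the fits named under the dependence on processing. Counting floors of 3 reads cover counting error only. Exonic length is the union of a gene's annotated exons.

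The members, gene lists and tests were chosen with earlier results of these data known. Named were all members; of each pathway list the 4 genes with the smallest p that passed, or all where 6 or fewer were tested, and its ligands; the 2 most abundant genes of each marker list; the 5 genes most like Tbx2 and Tbx4; and the neighbours near Tbx2 to Tbx5, while those of Tbx1, Tbx6 and Tbx21, also due under the rule, are given as counts. The alleles in the genotype labels and 1 gene of the list of reported TBX2 or TBX3 targets are not reported here, though that gene is in its list's counts.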

Additional observations from a re-analysis of the deposited data

How the results depend on the processing

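Over the 16 alternative fits, all planned, the number of changed genes stayed between 5032 and 5685 around 5667. It was 5612 with edgeR and 5243 with DESeq2 on recovered reads. The log2 difference of Tbx2 ran from 1.81 to 1.92 and that of Tbx4 from 1.34 to 1.52, both ends from runs that left out 1 library. Tbx1 ran from 1.58 to 1.70, Tbx3 from 1.38 to 1.51 and Tbx5 from 0.79 to 0.97, while Tbx6 ran from 0.04 to 0.51. The counts of mesenchymal transcription factors (16 and 0) were the same in all 16 fits. So were those of fibroblast markers (6 and 4) and of smooth muscle and pericyte markers (11 and 1). The replicate numbers did not pair the libraries, since deviations of same-numbered libraries had correlations of -0.00744, -0.0189 and 0.0124. A fit that adds the replicate block called 5603 genes, 2785 of them higher and 2818 lower in SD, with Tbx2 at 1.86 and Tbx4 at 1.42. Other scalings moved the median log2 difference of all tested genes from -0.0102 in the main fit to between -0.0177 and -0.0135. Of 160 list genes that passed, 18 lost the call in at least 1 fit, in 48 gene and fit pairs; genes that a fit's own filter removed, such as Cd3e with edgeR or 10 reads, or that stand among the first 60 rows in the fit without those, are not counted there. The cause was not tested. At these depths, genes under about 1 CPM, such as Tbx21, rest on fewer than 10 reads per library.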

Other observations

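Around Tbx1, 6 of 14 tested neighbours within 500 kb were higher in SD and 2 lower, with a median log2 difference of 0.33. Around Tbx6, in a gene-dense stretch, 9 of 32 were higher and 10 lower (median -0.12), and around Tbx21, 4 of 21 were higher and 8 lower (median -0.00). Of all tested genes, 28.1% were higher and 28.5% lower, with a median of -0.01. In either direction it was 56.6%. The Tbx6 counts are near those shares, and no result about any of the stretches is read from these counts. Calls lost in at least 1 fit were Arvcf and Txnrd2 near Tbx1 and Lrrc46 and Osbpl7 near Tbx21. Near Tbx6 they were Atxn2l, Eif3c, Kctd13, Kif22 and Tmem219.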
